A study of Mus musculus with 4 samples.

Results

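The sarcomere genes described here are 48 mouse genes of the contractile apparatus of striated muscle, with the calcium handling, energy and anchoring proteins that work beside it. They were chosen by name, and all 48 were found among the 30222 gene names of the array. By the textbook use of each isoform they fall into 15 fast-type, 11 slow-type, 5 cardiac and 2 developmental genes. The other 15 were counted as shared between fibre types. RNA was measured on 4 Agilent whole-genome arrays read in a single colour (Cy3), 1 array per group, which leaves every difference without replicates and without a p-value. The first group was ligament of A-transgenic mice on the C57BL/6J background, which carry a mouse gene that the labels name only A in the plasmid pCAGGS, a vector with a strong promoter active in most cell types. The ligament of wild type C57BL/6J mice was set against it. The third group was the ligament-like tissue formed by mesenchymal stem cells after transfection with A in the same vector, and it is called the transfected tissue here. Its untransfected counterpart was the mesenchymal stem cells themselves, derived from embryos of the C3H strain and obtained from a cell bank. No vector-only control was among the 4 samples, the number and age of the mice and the site of the ligament are not given in the labels, and a contrast of cells with ligament is also one of C3H with C57BL/6J.

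A sarcomere is built from thin actin filaments, along which tropomyosin and the troponin complex carry the calcium switch, and thick myosin filaments, whose heads pull on actin. Vertebrate muscle fibres are called slow or fast by the myosin heavy chain they use, and most other sarcomere proteins have a slow-type and a fast-type version made by separate genes. Several slow-type genes also serve the heart, and embryonic and neonatal myosins, with the cardiac actin, are made in growing or regenerating skeletal muscle.

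Normalised signal is given throughout on the log2 scale relative to the 75th percentile of the array. Differences are log2, the first-named group minus the second. Higher and lower are used as calls for differences of 2-fold or more. The scanner software marks spots well above background, and a fold against an unmarked reading is a bound, written as at least. The only error that can be given is that between spots of a repeated probe within an array, which makes an SD of 0.145 for a log2 difference between the ligaments. The signal at the 75th percentile was 303 in transgenic and 285.5 in wild type ligament, against 2272 in the transfected tissue and 1165 in the stem cells, and no spot was saturated.

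Both ligament samples carried RNA of nearly the whole sarcomere set, and the cell samples did not. In transgenic ligament 47 of the 48 genes were well above background and in wild type ligament 46, compared with 22 in the transfected tissue and 28 in the stem cells. Over all spots besides controls the share well above background was 53.5% in transgenic and 49% in wild type ligament. It was 56% in the transfected tissue and 56.3% in the stem cells, so the stem cell count lay near the share over all spots. Over the slow-type genes the median normalised signal was 4.87 in transgenic and 3.82 in wild type ligament, and it was -4.93 in the transfected tissue and -4.59 in the stem cells. Over the shared genes it was 7.38 in transgenic and 7.22 in wild type ligament, against -5.91 in the transfected tissue and -5.27 in the stem cells. The tissue label was checked with an 11-gene tendon list, of which 11 genes were well above background in transgenic ligament, 10 in wild type ligament, 9 in the transfected tissue and 9 in the stem cells, so that the list does not separate ligament from the cells. Tenomodulin (Tnmd), a membrane protein of tendon and ligament cells, read -0.43 in transgenic and -2.89 in wild type ligament, against -1.61 in the transfected tissue and -0.95 in the stem cells. In wild type ligament, this marker was thus lower than in the cells, but the list as a whole was mixed. Of the 11 tendon genes, 5 were higher and 3 lower in wild type ligament than in the stem cells, with a median of 0.81. Of all genes compared there, 37.7% were higher and 24.6% lower. Of 36 further striated muscle genes, 35 were well above background on each ligament array. In such bulk RNA, fewer fibres of a type and less RNA per fibre cannot be told apart.

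**Figure D1:**
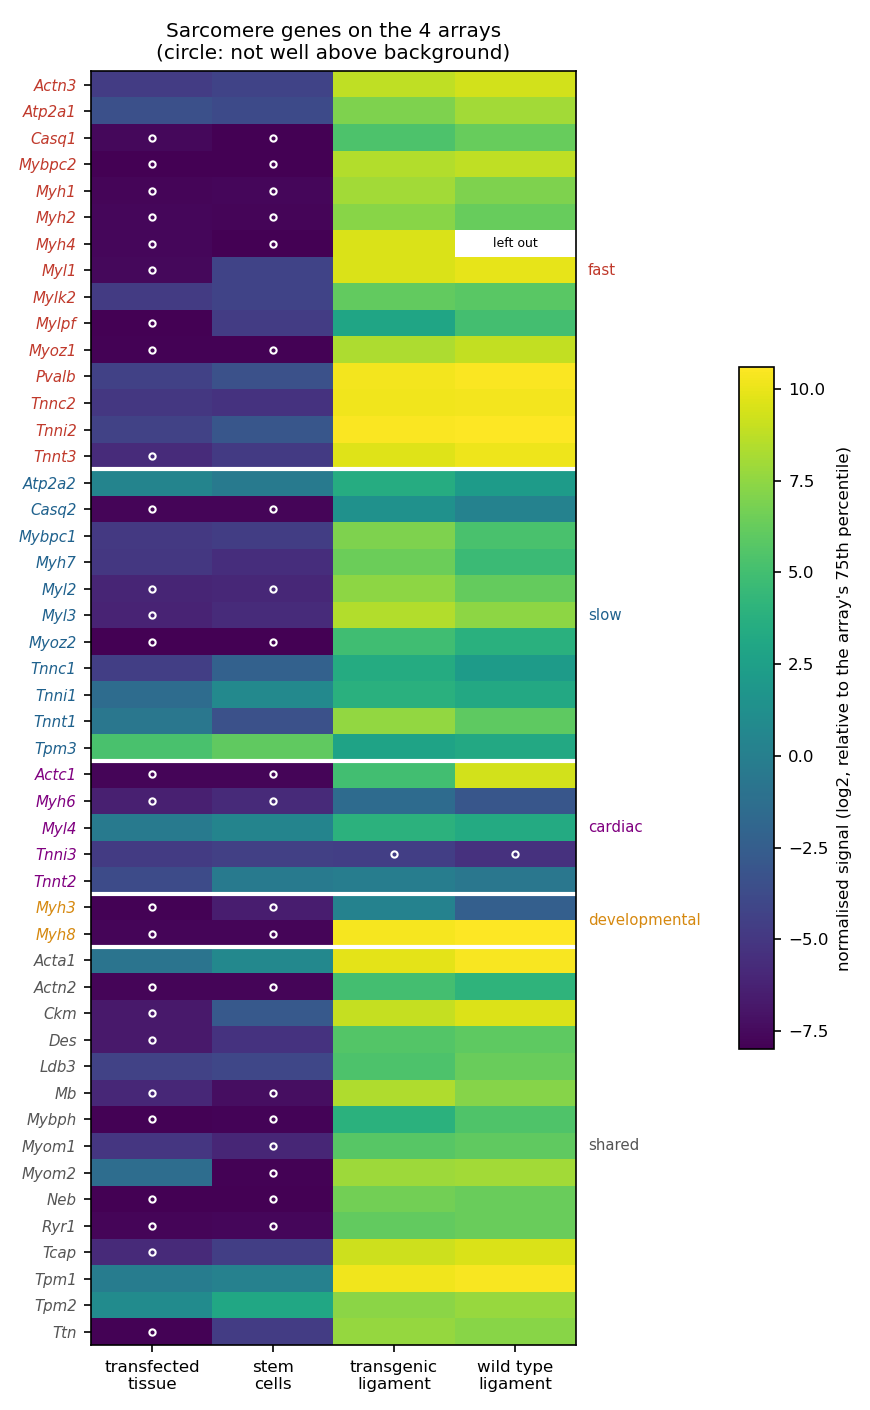
Normalised signal (log2, relative to the 75th percentile of each array) of the 48 sarcomere genes on the 4 arrays, 1 array per column, with genes grouped by isoform class. White circles mark genes not well above background. The ligament columns are bright for 47 (transgenic) and 46 (wild type) genes, and the cell columns are dark for most of them.

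The probes whose readings matter most below are shown first, because 2 of the results turn on which part of a gene a probe reads. Positions are those of the files, build mm9, and each sequence is 60 bases long, 5′ to 3′. Tropomyosin 3 (Tpm3) was read by 3 probes. The first and second, shown without capitals, were brighter in ligament than in the cells, and the third was brighter in the cells:
Tpm3 probe 1 (chr3:89877669-89877728, plus strand): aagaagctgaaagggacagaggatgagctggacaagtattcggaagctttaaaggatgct
Tpm3 probe 2 (chr3:89892985-89893044, plus strand): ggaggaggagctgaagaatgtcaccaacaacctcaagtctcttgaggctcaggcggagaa
Embryonic myosin (Myh3) and perinatal myosin (Myh8) have related coding sequences, and a probe of each is given with the best ungapped match between them in capitals, 21 identical bases of 26:
Myh3 probe 1 (chr11:66915107-66915166, plus strand): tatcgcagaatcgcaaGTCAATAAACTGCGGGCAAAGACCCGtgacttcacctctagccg
Myh8 probe 4 (chr11:67121925-67121984, plus strand): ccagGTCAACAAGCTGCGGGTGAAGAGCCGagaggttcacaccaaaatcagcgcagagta
That match had the most identical bases between probes of different myosin heavy chain genes in the set. Only probes were compared with each other, so likeness of a probe to the rest of any myosin transcript was not examined. A match between 2 probes does not show whether either binds the transcript of the other gene, which was not tested. A probe each of the slow-type and fast-type myosin-binding protein C genes, Mybpc1 and Mybpc2, is also given. Their capitals mark the best match between the 2 probes, which is 6 bases long:
Mybpc1 probe 2 (chr10:87985807-87985866, minus strand): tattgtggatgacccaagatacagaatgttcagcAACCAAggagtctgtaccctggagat
Mybpc2 probe (chr7:51759105-51759164, minus strand): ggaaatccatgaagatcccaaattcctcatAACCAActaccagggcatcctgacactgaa

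The central comparison was transgenic against wild type ligament, which shares strain and, by the labels, the tissue, though the site of the ligament is not given. Most slow-type genes were higher in transgenic ligament, while most fast-type genes had small negative differences and a few passed 2-fold in either direction. Of 46 sarcomere genes compared, all measured on both arrays, 14 were higher and 4 lower, where 6.29% of all 16377 genes compared were higher and 7.03% lower. Slow-type genes made up 9 of the 14: 9 of 11 slow-type genes were called higher and none lower, with a class median of 1.21, or 2.31-fold. Among 14 fast-type genes 2 were higher and 2 lower, with a class median of -0.35, or -0.04 under quantile normalization. The shared genes had a median of -0.31, or 0 under quantile normalization, with 1 of 15 higher and 1 lower, and the median over all genes was -0.03. The 2 genes not compared were Myh4, whose only spot was marked as an outlier on the wild type array, and cardiac troponin I (Tnni3), not well above background in either ligament.

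**Figure D2:**
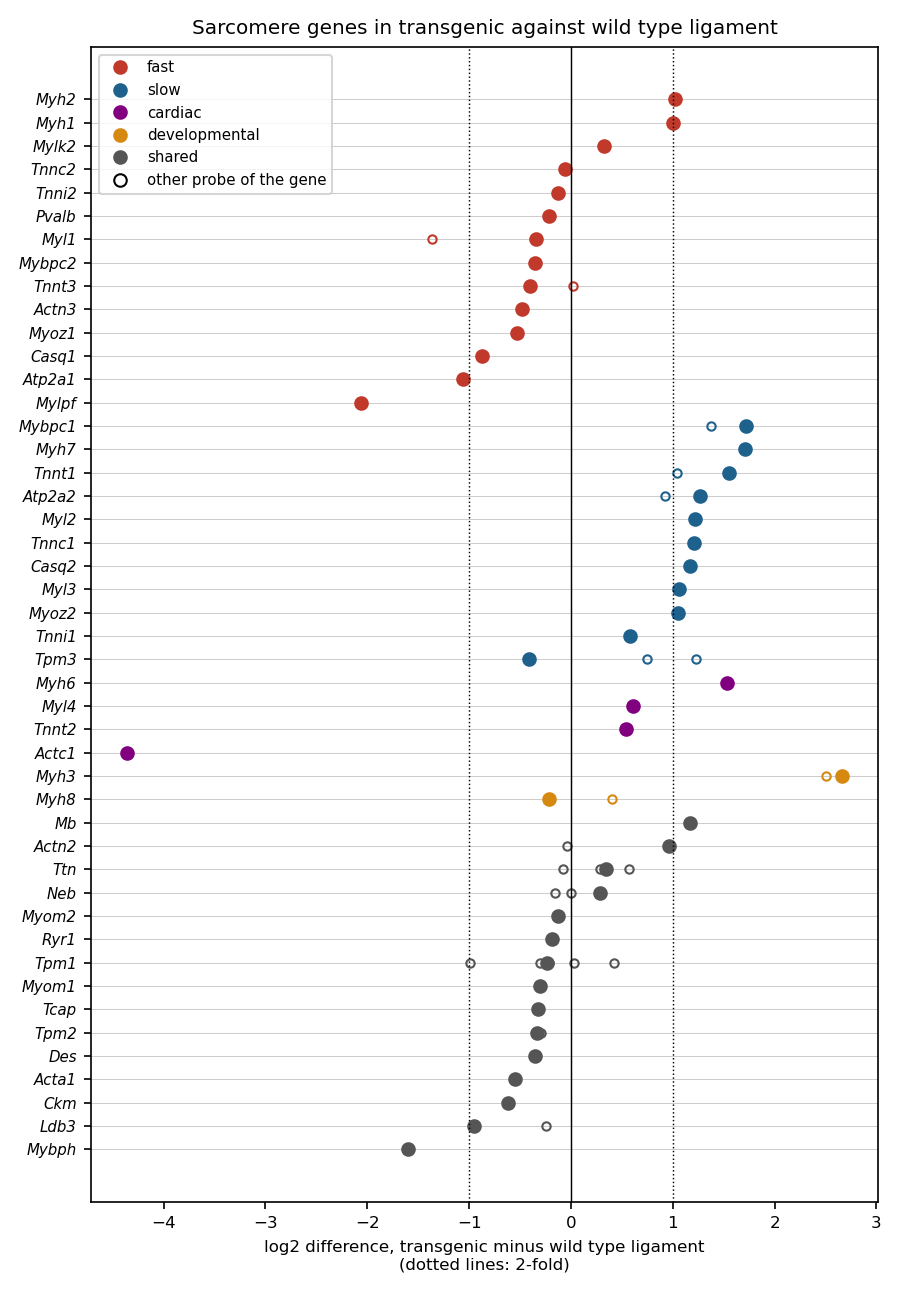
Log2 difference between transgenic and wild type ligament for the 46 sarcomere genes compared, by isoform class, 1 array per group. Filled points are the probe used for the gene, open points its other probes measured on both arrays, and dotted lines mark 2-fold. Of the slow-type genes 9 of 11 lie right of the upper line, whereas 10 of 14 fast-type genes lie between the lines.

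Among the thick filament genes of the slow class, Myh7, the slow myosin heavy chain that is also the beta form of the heart, had a normalised signal of 6.39 in transgenic and 4.68 in wild type ligament, against -4.99 in the transfected tissue and -5.57 in the stem cells. It was 3.27-fold higher in transgenic ligament. The regulatory light chain Myl2 stood at 7.40 in transgenic and 6.18 in wild type ligament, and it was not well above background in the cells. Its call as higher was lost (0.46) when its other probe, not well above background in either ligament, was averaged in. Both ligament values thus lay far above the cell values for these genes, with the transgenic one on top. The essential light chain Myl3 read 8.48 in transgenic and 7.43 in wild type ligament, a 2.08-fold difference. Mybpc1, the slow-type form of the protein that ties myosin heads to the filament, read 7.01 in transgenic and 5.29 in wild type ligament and had the largest difference of the class, 1.72. Its second probe, printed above, gave 1.38.

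The slow-type troponins, which form the calcium switch, divided into a calcium-binding and a tropomyosin-binding subunit past 2-fold and an inhibitory subunit short of it. Tnnt1, the tropomyosin-binding subunit, read 7.56 in transgenic and 6.01 in wild type ligament, 2.93-fold higher, and its other probe gave a difference of 1.04. Tnnc1, the calcium-binding subunit of slow and cardiac muscle, read 3.45 in transgenic and 2.24 in wild type ligament, 2.31-fold higher. Tnni1, the inhibitory subunit, read 3.81 in transgenic and 3.23 in wild type ligament, a difference of 0.58 that is 1.50-fold and not called.

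Calcium handling followed the same order. Atp2a2, the calcium pump of the slow-fibre and heart reticulum, read 3.49 in transgenic and 2.23 in wild type ligament, 2.40-fold higher, and its second probe gave 0.92. Casq2, the calcium store protein of slow and cardiac muscle, read 1.43 in transgenic and 0.27 in wild type ligament, 2.24-fold higher. At the Z-disc, where thin filaments are anchored, Myoz2 read 4.87 in transgenic and 3.82 in wild type ligament, 2.07-fold higher. The exception of the class was Tpm3, whose chosen probe read 2.81 in transgenic and 3.22 in wild type ligament. The 2 Tpm3 probes printed above gave 0.75 for probe 1 and 1.22 for probe 2. Over all probes of slow-type genes measured on both ligaments, 15 of 16 were above 0, with a median of 1.19.

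In the fast class the myosin heavy chains did not share one direction with their partners. Myh2, the fast oxidative myosin, read 7.29 in transgenic and 6.27 in wild type ligament, 2.03-fold higher, and Myh1, an intermediate fast myosin, read 7.99 in transgenic and 6.99 in wild type ligament, 2.01-fold higher. Both differences lie just past the 2-fold limit. Myh4, the fastest glycolytic myosin, read 9.55 in transgenic ligament, and with its outlier spot kept on the wild type array the difference was 0.14. The signals of that spot were 226940 in transgenic and 194564 in wild type ligament.

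The regulatory light chain of fast fibres, Mylpf, stood out on the other side. It read 2.96 in transgenic and 5.02 in wild type ligament, 4.16-fold lower, through its single probe. The fast calcium pump Atp2a1 read 6.99 in transgenic and 8.05 in wild type ligament, 2.08-fold lower, a value near the limit that was not past it under quantile normalization. The fast calcium store protein Casq1 had a difference of -0.87, and the Z-disc genes Myoz1 and Actn3 had -0.53 and -0.48. Smaller negative values were found for the fast troponins, -0.40 for Tnnt3, -0.13 for Tnni2 and -0.06 for Tnnc2. The last of these lay within the spot error, as did Tnni2. The calcium buffer parvalbumin (Pvalb), a mark of fast fibres in mouse, gave -0.22, the essential light chain Myl1 -0.34 with a second probe at -1.37, and Mybpc2 -0.35. Mylk2, the kinase of the fast regulatory light chain, had 0.33. On the raw scale these probes ranged widely. Tnni2 had signals of 426258 in transgenic and 439594 in wild type ligament. Mylpf, the dimmest of the class in both ligaments, had 2353 in transgenic and 9239 in wild type ligament.

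Pairs of counterparts of the same function were drawn up after the values had been seen, so they describe the arrays and test nothing. They set 10 slow-type genes and the shared gene Actn2 against fast-type genes. Of the 11 pairs, 10 had a value for both genes, and in these 10 the fast-type gene had the smaller transgenic minus wild type difference. The tropomyosins were not paired, and there the order depended on the probe: the slow-type Tpm3 differed by -0.41 with its chosen probe, below the shared Tpm1 (-0.23) and Tpm2 (-0.33), while its other probes gave 0.75 and 1.22. The slow minus fast gap was smallest for the inhibitory troponins Tnni1 and Tnni2 (0.71), had a median of 1.77 and was largest for the regulatory light chains Myl2 and Mylpf (3.28). It was 1.26 for Tnnc1 over Tnnc2, 1.96 for Tnnt1 over Tnnt3 and 2.07 for Mybpc1 over Mybpc2. The calcium pumps Atp2a2 and Atp2a1 differed by 2.32, a 5.00-fold shift in their ratio. Actn2, the alpha-actinin of all fibres and counted as shared, exceeded the fast-fibre Actn3 by 1.44. Myh7 over Myh4 gave 1.57 when the outlier spot was kept. A gap of this kind compares 2 differences taken on the same 2 arrays, so a constant factor between the arrays leaves it as it is. A change that depends on signal level does not. The median gap was 1.44 under quantile normalization and 1.25 in the deposited table, which gave a value for all 11 pairs.

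**Figure D3:**
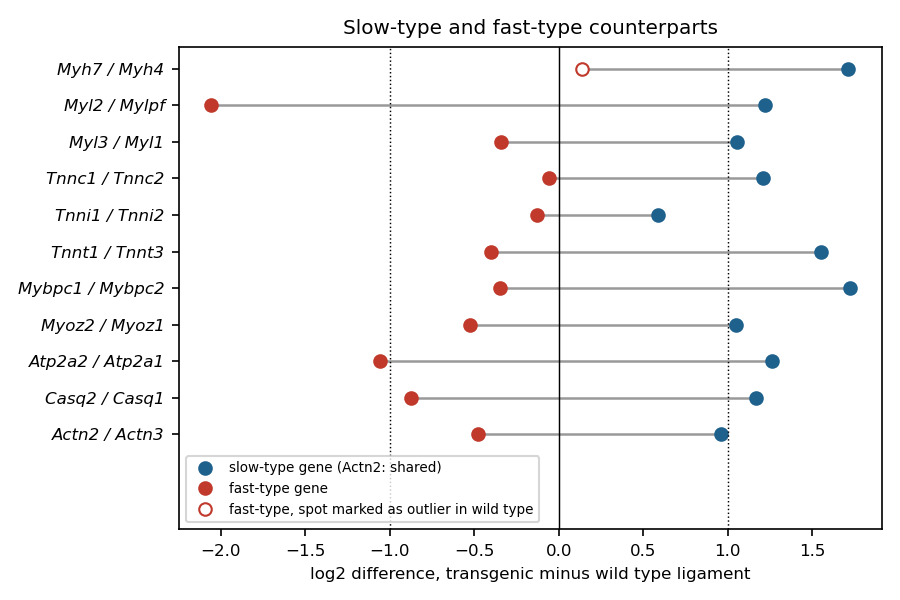
Transgenic minus wild type log2 difference for 10 slow-type genes and the shared gene Actn2 (blue) and their fast-type counterparts (red), joined by a line; the tropomyosins were not paired. The open point is Myh4 with the spot that was marked as an outlier on the wild type array. Each blue point lies right of its red point, by 0.71 to 3.28.

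The developmental and cardiac isoforms behaved gene by gene. Myh3, the embryonic myosin, read 0.27 in transgenic and -2.40 in wild type ligament, 6.34-fold higher, and the probe printed above gave 2.50, close to the 2.66 of the chosen one. Both wild type signals were low, 54.2 for the chosen probe and 43.8 for the other, where the dimmest spot well above background had 26.9. The size of the fold is therefore uncertain. Under normexp the median of the 2 developmental genes was 0.80, against 1.22. Myh8, the perinatal myosin, read 10.32 in transgenic and 10.54 in wild type ligament with the probe printed above, a difference of -0.22. Another Myh8 probe, nearer the 5′ end, read 4.87 in transgenic and 4.46 in wild type ligament, and the remaining 2 were not well above background in any sample. So Myh3 was higher by both of its probes, while the Myh8 probes neither agreed in sign nor passed 2-fold.

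Actc1, the actin of the heart and of developing skeletal muscle, had the largest difference of all 46 genes. It read 4.94 in transgenic and 9.30 in wild type ligament, 20.5-fold lower in transgenic ligament, and it was not well above background in the cells. Acta1, the adult skeletal actin, read 9.85 in transgenic and 10.40 in wild type ligament, a difference of -0.55. The actins of the embryo and the adult were thus both on the lower side, and Actc1 far more so. Myh6, the alpha myosin of the heart, was 2.89-fold higher, but both signals were low, 107 in transgenic and 35.1 in wild type ligament, where the dimmest spot well above background had 20.3 in transgenic and 26.9 in wild type ligament. Under normexp background correction the difference was 0.75. Myl4, the atrial and embryonic essential light chain, gave 0.61, and Tnnt2, the cardiac and embryonic troponin T, gave 0.54.

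The genes counted as shared between fibre types mostly differed little between the ligaments. Titin (Ttn), the elastic spring of the sarcomere, had 0.34, nebulin (Neb), which spans the thin filament, 0.28, and the calcium release channel Ryr1 -0.19. The tropomyosins Tpm1 and Tpm2 gave -0.23 and -0.33, the M-band proteins Myom1 and Myom2 -0.31 and -0.13, the titin cap Tcap -0.33 and desmin (Des) -0.35. These 9 genes lay between -0.35 and 0.34 and took both signs. Desmin was read by 10 spots on each ligament array, with an SD of 0.08 in transgenic and 0.07 in wild type ligament. Differences of 2-fold were limited in this class to Mb, the oxygen store myoglobin, and Mybph, a relative of the myosin-binding proteins. Mb read 8.39 in transgenic and 7.22 in wild type ligament, 2.24-fold higher, and Mybph read 3.87 in transgenic and 5.47 in wild type ligament, 3.03-fold lower. Below the limit, the Z-disc gene Actn2 had 0.96, its other probe -0.04, Ldb3 -0.95, and muscle creatine kinase (Ckm) -0.61.

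Other genes of muscle gave the setting. Of 35 further striated muscle genes compared, 5 were higher and 4 lower in transgenic ligament, with a median of 0.10. The higher ones included Sln (2.31), a small inhibitor of the calcium pump, and Csrp3 (1.75), a Z-disc stress protein. Xirp1 (1.41), Hspb7 (1.42) and, outside the naming rule and chosen after its value was seen, Lmod2 (1.33) were the others. The lower ones, Jph2 (-1.23), Ampd1 (-1.11), Trim63 (-1.10) and Trim54 (-1.05), were likewise named after their values were seen. Muscle glycolysis genes had a median of -0.53 over 10 genes, of which 1, Fbp2 (-1.21), was lower and none higher. Genes of oxidative metabolism had a median of -0.21 with none of 10 past 2-fold, and they took both directions: the fatty acid carrier Fabp3 had 0.93 and the cytochrome oxidase subunit Cox7a1 -0.92. None of 9 myogenic regulators passed 2-fold, and myogenin (Myog) had the largest difference, 0.76. At the neuromuscular junction 2 of 8 genes were higher, the receptor subunit Chrnd (1.54) and the kinase Musk (1.16).

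Heart genes, which matter because the slow class overlaps the heart's, were not well above background in either ligament for 11 of 12 listed genes, among them the natriuretic peptides Nppa and Nppb and the atrial light chain Myl7. The exception was Myh7b, a myosin found in heart and slow fibres, which was 1.61 higher in transgenic ligament. Lists for other tissues moved too. The summed signal of the 10 epidermis genes, in units of the 75th percentile, was 181.9 in transgenic and 33.3 in wild type ligament, with 8 of 10 higher. That of the 11 tendon genes was 346.6 in transgenic and 259.3 in wild type ligament, with 9 higher. The 10 blood genes went the other way, at 661.8 in transgenic and 2066 in wild type ligament, with 10 of 10 lower. Smooth muscle genes were higher for 5 of 9, with a median difference of 1.13. Without Des, which is also a sarcomere gene of the set, the summed signal of that list was 30.4 in transgenic and 15.5 in wild type ligament. Adipocyte genes were lower for 2 of 7, with sums of 157.3 in transgenic and 166.2 in wild type ligament, and none of 11 non-muscle actin, myosin and actinin counterparts passed 2-fold. The part of these tissues in the fibre-type differences was not tested.

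Wild type ligament was next set against the stem cells, a comparison in which strain and origin differ with the tissue. Of 46 genes compared, 44 were higher in ligament, where 37.7% of all genes were, and 1 was lower, where 24.6% of all genes were. The median was 11.88, and 19 of the 46 values were bounds because the stem cell array was not well above background. Fast-type genes had a median of 13.60 and slow-type genes one of 9.36. Tnnc2, the calcium-binding subunit of fast troponin, read 10.24 in wild type ligament and -5.25 in stem cells. Myh8 was at least 82417-fold higher by the probe printed above, the largest bound. By its probe nearer the 5′ end it was at least 1215-fold higher, and its remaining 2 probes were not well above background in any sample. Apart from Tpm3, the slow-type genes with the smallest differences were Tnni1 (2.47) and Atp2a2 (2.58), which read 0.75 for Tnni1 and -0.36 for Atp2a2 in the stem cells. Tnnt2 differed by -0.21, with -0.64 in wild type ligament and -0.43 in stem cells.

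Tropomyosin values depended on the probe. Tpm3, the single gene lower in ligament, had -2.83 with its chosen probe, which read 3.22 in wild type ligament and 6.05 in stem cells. Probe 2, printed above, read 3.47 in wild type ligament and -2.87 in stem cells, 6.35 higher. Probe 1 was higher by at least 7.46, since it was not well above background in the cells. The opposite directions belong to probes at different positions of a gene that is known to make muscle and non-muscle transcripts. Tpm1 also went in both directions, by varied amounts. Of its 6 probes, overlapping probes at chr9:66875782-66875841 and chr9:66875796-66875855 (mm9, minus strand) were 9.89 and 10.24 higher in wild type ligament. The probe at chr9:66871166-66871225 differed by -4.31, and the remaining probes by 2.78, -0.55 and -1.23.

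**Figure D4:**
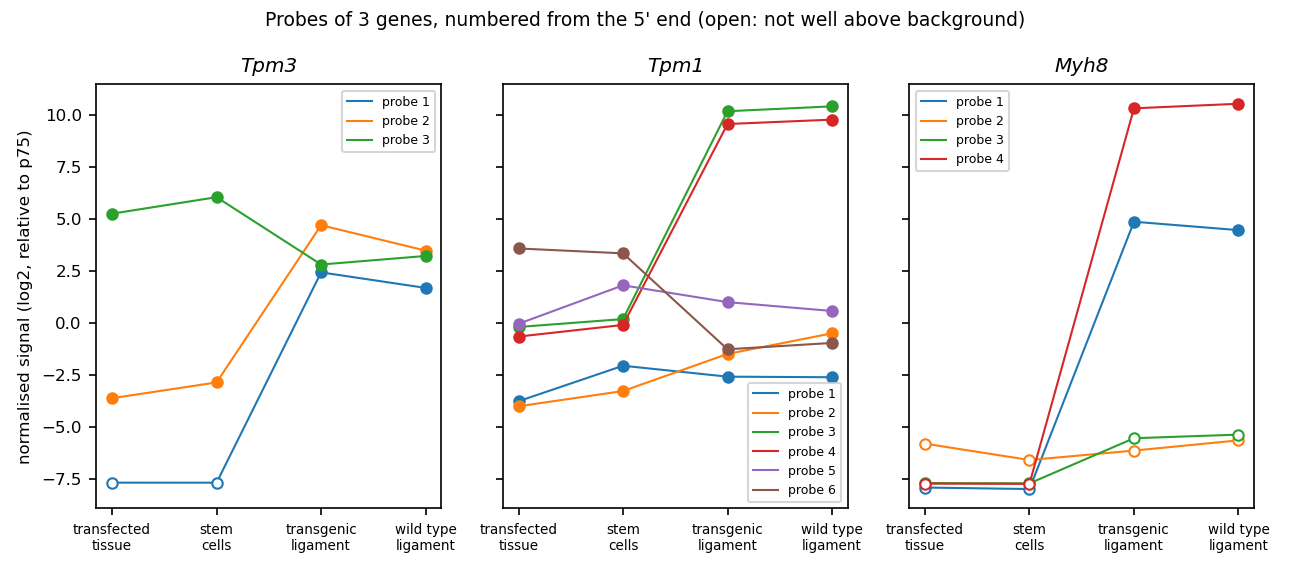
Normalised signal (log2, relative to the 75th percentile of the array) of each probe of Tpm3, Tpm1 and Myh8 on the 4 arrays, with probes numbered from the 5′ end of the gene and open points for values not well above background. Tpm3 probe 3 and Tpm1 probe 6 are higher in both cell samples than in ligament. The other Tpm3 probes and Tpm1 probes 2 to 4 are higher in ligament. For the remaining Tpm1 probes the ligament values lie between those of the stem cells and the transfected tissue. Of the 4 Myh8 probes, 2 are not well above background in any sample.

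In the transfected tissue few sarcomere genes were higher than in the stem cells. Of 30 genes compared, 2 were higher, where 10.9% of all genes were, and 12 were lower, where 13.4% of all genes were. The remaining 18 were not well above background in either. The median was -0.61, against -0.08 over all genes. Genes called lower came from the fast class (4), the slow class (2), the cardiac class (1) and the shared class (5). Of these 12 calls, 8 remained under quantile normalization, in the deposited table and with centring on probes detected on all arrays, each of which lost Mylpf, Pvalb, Ttn and Tcap.

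The lower genes included several whose stem cell signal was well above background although the cells are not muscle. Tnnt2 read -3.77 in the transfected tissue and -0.43 in stem cells, 10.1-fold lower. Tpm2 read 1.01 in the transfected tissue and 3.06 in stem cells, 4.15-fold lower, and Tnni1 read -1.40 in the transfected tissue and 0.75 in stem cells, 4.46-fold lower. All 3 are thin filament genes. Tnnc1 was 5.04-fold lower, at -4.58 in the transfected tissue and -2.24 in stem cells, and Acta1 was 2.88-fold lower, at -0.83 in the transfected tissue and 0.69 in stem cells. Ckm was at least 7.45-fold lower, from a stem cell reading of -2.82. Tnni2 (-1.24) and Pvalb (-1.05) were measured on both arrays, but their unscaled signals were close. Those were 115 in the transfected tissue and 140 in stem cells for Tnni2, and 105 and 112 for Pvalb. Both calls thus depend on scaling to the 75th percentile, 2272 in the transfected tissue and 1165 in stem cells. Myl1, Tcap, Mylpf and Ttn were lower by bounds of at least 2.00-fold to at least 2.79-fold.

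The 2 higher genes were Tnnt1 and Myom2. Tnnt1 read -0.61 in the transfected tissue and -3.35 in stem cells, 6.70-fold higher, and its other probe, which was not well above background in the stem cells, was also on the higher side, by at least 1.71 on the log2 scale. Myom2, an M-band protein that binds myosin and titin, read -1.33 in the transfected tissue and was not well above background in the stem cells, at least 22.0-fold higher. Myom1, its close relative, had a bound of 0.71. Apart from these, the fast myosins Myh1, Myh2 and Myh4, the developmental myosins and Actc1 were not well above background in the transfected tissue or in the stem cells.

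Against wild type ligament, 45 of 46 genes were lower in the transfected tissue, where 39.7% of all genes were, and 1 was higher, where 23.0% of all genes were. The median was -11.36. By class median the smallest difference was that of the cardiac class, -3.41, with Myl4 at -0.34 in the transfected tissue and 3.34 in wild type ligament. Its values ran from -15.01 for Actc1 to -2.69 for Myh6, both of them bounds. The cardiac class also had the lowest median signal in wild type ligament, -0.64, against 8.85 for the fast class. Tnnt1, the gene higher in the transfected tissue than in the stem cells, was still 97.8-fold lower than in wild type ligament, and Myom2 was 640-fold lower. The gene on the higher side was Tpm3 by its chosen probe (2.04). This comparison shares the wild type array with the comparison of ligament and stem cells, and the stem cell array is shared likewise, so their values are not independent.

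The promoters of the set were read to see which muscle motifs lie near the starts, since slow-type genes moved together. RefSeq promoter sequences (GRCm38.p6), 250 bases before to 50 bases after the start, were matched by symbol for 39 of the 48 genes. The E-box CANNTG, the site of the MyoD family, was present in 33 of 39 (84.6%), against 72.1% of 27025 promoters of all genes, in 10 of 10 slow-type promoters and in 7 of 10 fast-type promoters (70%). The MCAT motif CATTCC was in 33.3% of the set and 14.6% of all, and TATAAA in 28.2% of the set and 14.2% of all. The MEF2 motif was in 17.9% of the set and 3.26% of all, and the CArG box, bound by SRF, in 15.4% of the set and 1.57% of all. Both strands were searched, and matches of different motifs were counted separately even where they overlap. Of the slow-type promoters 2 held a MEF2 match, those of Casq2 and Myoz2, both shown with matches to any of the 5 motifs in capitals, followed by Actc1, the gene with the largest difference between the ligaments, which held a CArG box and a TATA box:
Casq2 promoter (chr3:102086165-102086464, plus strand): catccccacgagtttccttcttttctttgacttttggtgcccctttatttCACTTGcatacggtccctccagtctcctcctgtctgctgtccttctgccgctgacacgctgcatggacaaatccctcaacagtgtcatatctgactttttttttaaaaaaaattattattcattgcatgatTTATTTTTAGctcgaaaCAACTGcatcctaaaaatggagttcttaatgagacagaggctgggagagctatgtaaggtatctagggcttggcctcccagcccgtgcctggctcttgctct
Myoz2 promoter (chr3:123034938-123035237, minus strand): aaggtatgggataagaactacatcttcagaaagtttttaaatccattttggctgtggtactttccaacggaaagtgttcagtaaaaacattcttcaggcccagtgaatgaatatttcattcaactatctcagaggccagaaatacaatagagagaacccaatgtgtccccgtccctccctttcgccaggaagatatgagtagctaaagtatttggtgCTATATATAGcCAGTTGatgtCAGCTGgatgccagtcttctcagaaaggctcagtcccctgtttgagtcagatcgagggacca
Actc1 promoter (chr2:114052826-114053125, minus strand): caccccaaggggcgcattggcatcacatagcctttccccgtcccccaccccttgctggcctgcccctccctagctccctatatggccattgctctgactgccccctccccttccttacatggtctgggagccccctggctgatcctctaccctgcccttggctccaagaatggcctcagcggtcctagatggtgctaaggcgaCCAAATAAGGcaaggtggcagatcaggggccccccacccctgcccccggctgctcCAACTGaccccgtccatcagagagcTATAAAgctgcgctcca
In the Casq2 window 1 of the 2 E-boxes lay beside the MEF2 match and the other lay far upstream. In the Myoz2 window both E-boxes lay just after the MEF2 match. A match describes the letters and is no evidence that a factor binds. MEF2 matches were not limited to the slow class: 3 of 10 fast-type promoters held one, Myh1 and Myh4 among them, as did the Myh8 promoter.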

How the data were processed

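RNA of 4 mouse samples was hybridised to Agilent single-colour arrays, 1 array per sample, all on the same slide. Per the file headers, the deposited intensity of each spot is the software's processed signal, linear, with background subtracted and spatial trends removed (Feature Extraction 10.7.1.1), and arrays were not scaled to each other. The submitters' processing notes name Agilent Feature Extraction 9.5.1.1, and which applies is unknown. The deposited value table holds linear intensity in 4 columns whose sorted values differ by at most 0.816; its method is not given in the sources used here, and it served as an alternative.

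Each array had 43020 spots besides controls, of which 155 to 281 carried a mark for non-uniform or outlying pixels or replicates and were dropped. Log2 signals, less the 75th percentile on that array, were averaged over spots of a probe, and the probe brightest on average across arrays stood for its gene. A probe counted as well above background when at least 0.5 of its kept spots were marked so. Where the dimmer array was not, the bound was taken against its own signal or, if higher, the dimmest marked signal on that array. Genes were compared when well above background on at least 1 array. No test was possible with 1 array per group. Precision is limited by the number of arrays.

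Alternatives were normexp background correction with offset 50 (limma 3.58.1, R 4.3.3), quantile normalization, other centrings, the deposited table, other probe and background rules, outlier spots kept, and other class assignments. Tables were computed in Python 3.11.15 with numpy 2.4.6 and pandas 2.3.3, and the comparison was tested on simulated data. The members and lists were chosen with earlier results of these data known. All members are named. Of each other list, genes named are up to 4 with the largest difference among those well above background in both ligaments. Outside that rule, Nppa, Nppb and Myl7 are named as defining heart genes, and Lmod2, Jph2, Ampd1, Trim63 and Trim54 were chosen after their values were seen. The lists covered further striated muscle, glycolysis, oxidative metabolism, heart, myogenic regulators, neuromuscular junction, smooth muscle, non-muscle counterparts, blood, epidermis, tendon and adipocytes. Probe positions are those of the files (mm9), and no genome was used.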

Additional observations from a re-analysis of the deposited data

Results flagged for a closer look

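Tnnc1, the calcium-binding troponin subunit of slow and cardiac muscle, was past 2-fold in opposite directions in 2 comparisons that both set a sample with gene A against one without it. It differed by -2.33 (log2) between the transfected tissue and the stem cells, and by 1.21 between transgenic and wild type ligament. The difference between these differences was not tested, since each group holds 1 array.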

How the results depend on the processing

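In transgenic against wild type ligament no called gene changed sign: of 460 gene values under the alternatives, 391 moved by less than the spot error and 69 by more. Many of the 391 were fixed in advance, so this count does not measure robustness. The rules on spots well above background and the keeping of outlier spots left these values as they were. The centrings shifted all genes by a constant smaller than the spot error. Quantile normalization gave medians of -0.0384 for the fast class, 0 for the shared class and 1.48 for the developmental class, with a fast minus slow gap of -1.2, against -1.55. The deposited table gave -0.0254, 0, 1.55 and -1.15 in the same order. Averaging all probes made the gap -1.37, and normexp made the developmental median 0.802. With Actc1, Myl4 and Tnnt2 counted as developmental, the cardiac median was 1.53 and the developmental one 0.542. Of the 14 genes called higher, Myh6 was lost under normexp and Myl2 with the mean of all probes. Of the 4 called lower, Atp2a1 was lost under quantile normalization, the deposited table and centring on the sarcomere genes, which moved the median of all genes to 0.10. Of the fast class, 11 of 14 genes were below 0, and 8 of 14 under quantile normalization. Under normexp, quantile normalization, the deposited table and the mean of all probes, the fast-type gene of each pair with a value had the smaller difference. The smallest gap was 0.59, in the deposited table. The other alternatives left the gaps as they were, apart from the Myh4 pair added when outlier spots were kept, so they give no further check.

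Tpm3 changed direction with the probe rule. In wild type ligament against stem cells it was 4.3 with the mean of all probes and 6.35 with the probe highest in ligament, a rule chosen after seeing the data; the genes called lower were then 0. In the transfected tissue against wild type ligament it was -4.81 and -7.11 under the same rules, and 0 genes were called higher. Requiring both arrays to be well above background left 25 genes higher in wild type ligament than in stem cells, 20 lower in the transfected tissue than in wild type ligament, and 1 higher and 7 lower in the transfected tissue than in stem cells, since bounds drop out. Of the 12 genes lower in the transfected tissue than in stem cells, 8 remained under quantile normalization, the deposited table and centring on probes detected on all arrays (without Mylpf, Pvalb, Ttn and Tcap), 9 with the mean of all probes (without Myl1, Pvalb and Ttn) and 11 under normexp (without Tcap). The cause of the other shifts was not tested. No paired analysis was possible because each group holds 1 array.

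Signal limits the dim genes: Myh6 and Myh3 in wild type ligament and all values at the floor of the cell arrays have bounds or little margin.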
